A study of Caenorhabditis elegans with 8 samples.

Results

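Lipid binding proteins (LBPs) are the fatty acid binding proteins of the nematode Caenorhabditis elegans, encoded by the genes lbp-1 to lbp-9. All 9 were found by gene symbol among the 20392 genes of the count table, and 6 of them passed the filter on low counts with 7379 genes of the table. Transcripts were counted in dissected intestines of wild-type worms of the N2(Bristol) strain, in 4 libraries of fasted and 4 of fed adults, which the labels call starved and non-starved. Fasted adults were kept for 12 h in M9 buffer after day 1 of adulthood was reached on bacterial plates, whereas fed adults were dissected at once after a wash, so that the fast, the hours in liquid and the added age cannot be told apart. The study's methods describe fed and fasted adults as parts of 1 collection, and the labels do not say whether same-numbered libraries share a collection. Each library pooled intestines of several animals. The labels of both groups also mention plates with auxin, whereas the design of the series names plain bacterial plates, and which is right for these animals is not settled by the labels.

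Fatty acids are poorly soluble in water, and members of this protein family hold them in the cavity of a small barrel-shaped fold and carry them between membranes, enzymes and nuclear receptors. In C. elegans LBP-1, LBP-2 and LBP-3 have predicted signals for secretion. LBP-8 is known for carrying a lipid signal from the lysosome to the nucleus, where it acts through the nuclear hormone receptors NHR-49 and NHR-80, and LBP-3 for carrying a lysosomal lipid signal out of the intestine to neurons. The intestine is the main fat store of the worm.

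The genes lie in groups along the genome. In the WBcel235 annotation, a later build than the ce10 genome used for alignment, lbp-3 (WBGene00002255; chromosome X, 3257372 to 3258155), lbp-1 (WBGene00002253; X, 3259142 to 3259812) and lbp-2 (WBGene00002254; X, 3260610 to 3261470) follow each other on 1 strand, with gaps of 986 and 797 bp. lbp-6 (WBGene00002258; chromosome I, 6728296 to 6729376) and lbp-5 (WBGene00002257; I, 6731267 to 6732276) are 1890 bp apart, with 1 protein-coding gene between them. lbp-7 (WBGene00002259; chromosome V, 13879552 to 13880213) and lbp-8 (WBGene00002260; V, 13890773 to 13891364) are 10559 bp apart, with 3 protein-coding genes between them. lbp-4 (WBGene00002256; V, 7820578 to 7821477) and lbp-9 (WBGene00021486; V, 2068449 to 2069142) stand alone. All 9 are annotated as protein-coding, with between 2 and 4 blocks of exons.

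Library totals were 25310202 to 33846215 counts in fasted and 20964161 to 26372847 in fed intestines, so that 3 counts, taken as the floor of detection, lay between 0.0886 and 0.143 reads per 1000000 counts of a library (RPM). Among counts from 1 to 20, 64.1 to 66.1% were even numbers in fasted and 72.0 to 73.9% in fed libraries, and how many separate fragments lie behind a low count was not tested. The 12 intestine markers all had counts in every library and summed to 3167 to 4263 RPM in fasted and 7782 to 8641 RPM in fed libraries. Of these sums cpr-1 alone averaged 2301 RPM in fasted and 6178 RPM in fed libraries. By the test described below, 3 markers were called higher (elt-2, elt-7 and ges-1) and 6 lower, against 52.9% and 9.97% of all tested genes. Under TMM scaling 0 were higher and 9 lower, against 19.6% and 21.5%. The 8 body wall muscle markers summed to 890.5, 56.7, 21.6 and 1268 RPM in fasted libraries 1 to 4, against 9.33 to 12.8 RPM in fed libraries, where myo-3 and hlh-1 were at 0 throughout. The other lists were also uneven among fasted libraries. In the same order, pharynx markers summed to 186, 2.25, 0.766 and 359 RPM, against 0.201 to 0.531 RPM in fed libraries, and germline and oocyte markers to 132, 360.2, 61.8 and 63.4 RPM, against 17.6 to 19.3 RPM. Ranges in fasted and fed libraries were 4.90 to 38.8 and 0.764 to 3.39 RPM for hypodermis, 8.99 to 62.9 and 3.48 to 5.79 RPM for neurons, 4.62 to 7.86 and 1.21 to 2.05 RPM for coelomocytes, and 0.0999 to 0.230 and 0.161 to 0.455 RPM for sperm.

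Levels were first compared between members within fasted and within fed intestines, to learn which lbp transcripts were most abundant. They are given per kilobase of exon, since the genes differ in length. lbp-6 held most of the family in both states, at 12.2 ± 6.04 RPM per kb in fasted and 44.0 ± 10.7 RPM per kb in fed intestines (SD, n = 4 each). In fed intestines lbp-4 came next (4.43 ± 0.638 RPM per kb), and its libraries overlapped neither those of lbp-6 above it nor those of lbp-7 below it. lbp-7 (1.79 ± 0.969), lbp-8 (1.69 ± 0.698), lbp-5 (0.314 to 3.46 over the 4 libraries), lbp-1 (0.537 ± 0.991), lbp-9 (0.146 ± 0.117), lbp-3 (0.0866 ± 0.0855) and lbp-2 (0.0746 ± 0.149 RPM per kb) followed, and no 2 neighbours in this order were apart by more than their spread. In fasted intestines lbp-6 overlapped with lbp-1, which was now next (4.40 ± 4.04 RPM per kb), although lbp-6 was above it in all 4 libraries. After lbp-2, lbp-5, lbp-7, lbp-9 and lbp-3, which overlapped with their neighbours, came lbp-4 (0.285 ± 0.0586 RPM per kb), and the last was lbp-8, at 0 in every library.

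The share of a member in the summed RPM per kb of the family does not depend on how a library is scaled. lbp-6 made up 41.8, 64.3, 62.7 and 52.4% of the family in fasted libraries 1 to 4, against 80.6, 81.2, 83.3 and 80.4% in fed libraries 1 to 4, and the groups did not overlap. lbp-4 made up 1.75% ± 1.27 of the family in fasted and 8.40% ± 1.47 in fed intestines (SD, n = 4 each). lbp-1 had 15.5% ± 7.35 in fasted and 0.847% ± 1.51 in fed intestines. These shares are a description, with no test. Summed over the family, levels ranged from 6.12 to 23.1 RPM in fasted and from 21.7 to 36.4 RPM in fed libraries, and the ranges overlapped.

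**Figure D1:**
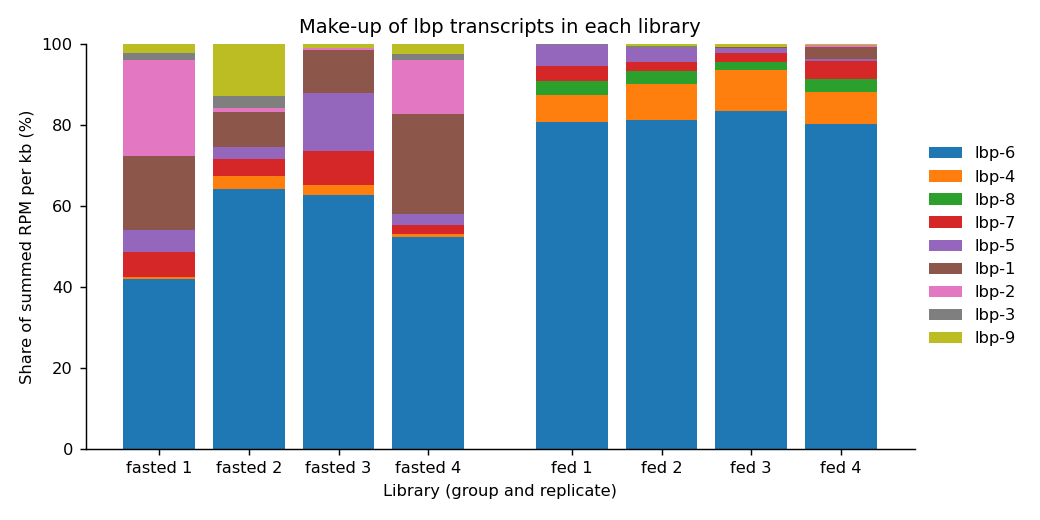
Share of each lbp gene (colours) in the summed RPM per kb of the family, in percent (vertical axis), for each fasted and fed library (horizontal axis). lbp-6 holds 41.8 to 64.3% in fasted and 80.4 to 83.3% in fed libraries, and lbp-8 is absent from the fasted bars.

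Each gene was then compared between fasted and fed intestines. Of the 6 tested members, 3 were lower in fasted intestines (lbp-4, lbp-6 and lbp-8), 0 were higher and 3 were not called, at a Benjamini-Hochberg FDR under 0.01 and a fold change over 1.5 in edgeR's quasi-likelihood test. At an unadjusted P under 0.05 in edgeR, 1 member was higher (lbp-1) and 3 were lower, and the share of all tested genes at this P was not computed. DESeq2 called 0 members higher and 4 lower, against 1748 higher and 1754 lower among the 7379 tested genes. By edgeR with total counts, 9.97% of all tested genes were called lower and 52.9% higher. Under TMM scaling 3 members were lower and 0 higher, against 21.5% and 19.6% of tested genes. These counts and the median below leave out lbp-2, lbp-3 and lbp-9, which failed the filter. lbp-4 and lbp-8 passed it by their fed counts alone. In a fit of all 16629 genes with a count, the 3 left-out members had positive log2 fold changes (lbp-2 5.27, lbp-9 2.39). The median of all genes in that fit was 1.89. Of these 3 only lbp-2 was called higher, a call lost under TMM. A median over all 9 members was not computed. The median log2 fold change of the 6 members was −1.27, also with lbp-8 at its bound given below, against 1.23 for all tested genes, a typical rise of 2.34-fold that was 0.16 under TMM scaling, a shift of 1.07. Changes below are therefore to be read against 1.23. Relative to it the changes of lbp-1, lbp-5 and lbp-7 were 1.76, −1.42 and −1.93, and those of lbp-4 and lbp-6 are given with each gene. lbp-4, lbp-6 and lbp-8 were also the members whose fasted libraries all lay below every fed library in RPM, which held for 11.1% of tested genes and for 5.23% of the 16629 genes with a count. For 0 members did every fasted library lie above every fed one, against 58.5% of tested genes and 31.2% of genes with a count.

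**Figure D2:**
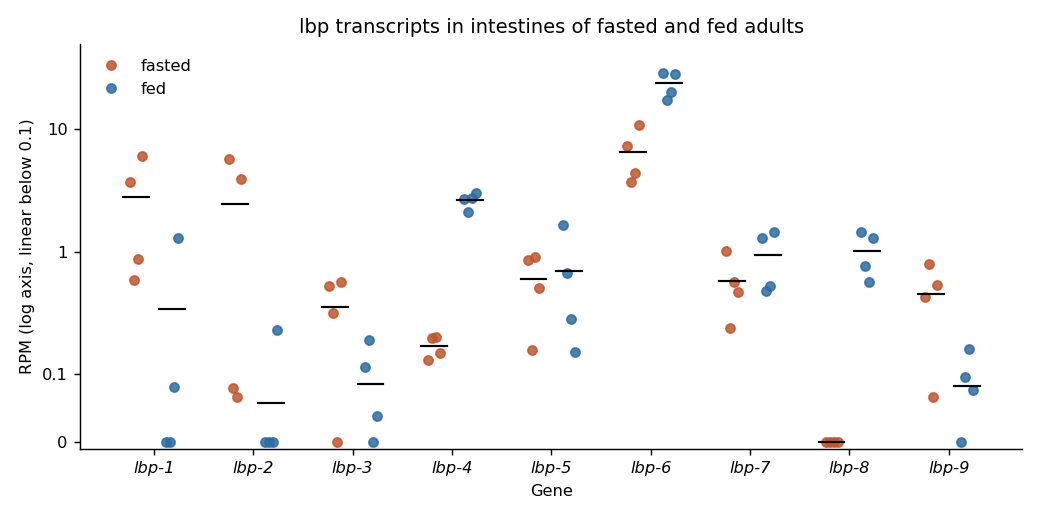
RPM of the 9 lbp genes (vertical axis, logarithmic above 0.1 and linear below) in single fasted and fed libraries (points), with the mean of each group as a bar. lbp-4, lbp-6 and lbp-8 are lower in every fasted than in any fed library, and the other 6 overlap.

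Of the intracellular carriers, lbp-6 had 7.26, 3.75, 4.40 and 10.9 RPM in fasted libraries 1 to 4, against 29.2, 17.4, 20.4 and 28.2 RPM in fed libraries 1 to 4. The lowest fed library was above the highest fasted one, and the fasted libraries with most lbp-6 were 1 and 4. The means were 3.62-fold apart, and the log2 fold change was −1.85 (SE 0.333, edgeR FDR 5.03e-04), or −3.08 relative to the median of all genes. Without fasted libraries 1 and 4, which held most muscle transcripts, it was −2.54. lbp-6 shares exon sequence on the opposite strand with mec-6, and reads of the 2 genes cannot be told apart without strand. mec-6 was counted at 0.137 ± 0.119 RPM in fasted and 0.230 ± 0.0657 RPM in fed intestines (SD, n = 4 each), far below lbp-6.

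lbp-8, the lysosomal signal carrier, had 0 counts in each of the 4 fasted libraries, against 38, 16, 14 and 34 counts (1.44, 0.763, 0.563 and 1.29 RPM) in fed libraries 1 to 4. The groups did not overlap. Set against the floor of 3 counts per library, the level was at least 10.0-fold lower in fasted intestines, a bound of −3.32 on the log2 scale. The bound itself was not tested, and edgeR's test of the counts for any difference gave an FDR of 1.48e-04. With the floor doubled to 6 counts, chosen after low counts were seen to be mostly even, the bound was −2.32 on the log2 scale. A count of 0 allows up to 0.0886 to 0.119 RPM in a fasted library, for counting error alone. In these bulk samples fewer cells with a transcript and less of it per cell cannot be told apart.

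lbp-4 had 4, 5, 6 and 5 counts in fasted libraries 1 to 4, against 71, 44, 68 and 79 counts in fed libraries 1 to 4. In RPM this was 0.169 ± 0.0348 in fasted and 2.63 ± 0.379 in fed intestines (SD, n = 4 each), a ratio of 15.6. The fasted counts lay close to the floor of 3 counts and not above the doubled floor of 6, so that the size of the fold is uncertain. The log2 fold change was −3.93 (SE 0.336, edgeR FDR 2.82e-06), and relative to the median of all genes it was −5.16. It lay between −4.03 and −3.83 when any 1 library was left out, and was −3.70 without fasted libraries 1 and 4.

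lbp-5 and lbp-7, the neighbours of lbp-6 and lbp-8 on their chromosomes, were not called. lbp-5, whose product is tied to fat storage, had 0.854, 0.158, 0.899 and 0.502 RPM in fasted libraries and 1.67, 0.668, 0.282 and 0.152 RPM in fed libraries, in the order of replicates. The fed libraries spanned the whole range of the fasted ones (log2 fold change −0.19, SE 0.728, edgeR FDR 0.816), and the sign turned without fasted library 2 (0.11) or fed library 1 (0.75). lbp-7 had 1.02, 0.237, 0.566 and 0.473 RPM in fasted libraries, against 1.29, 0.477, 0.523 and 1.44 RPM in fed libraries. The groups overlapped (log2 fold change −0.70, SE 0.537, edgeR FDR 0.251). With DESeq2 lbp-7 was called lower (−1.78, FDR 0.00303), and with edgeR under TMM it was not (−1.77, FDR 0.0159).

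**Figure D3:**
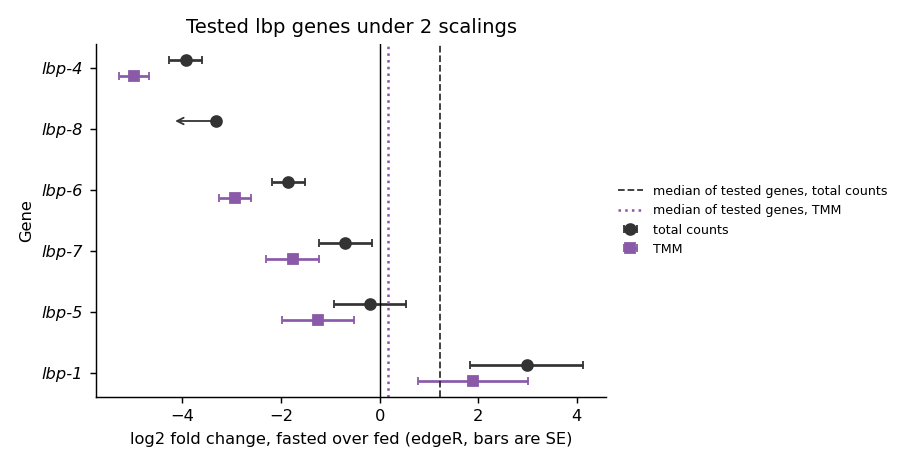
edgeR log2 fold change, fasted over fed (horizontal axis, bars are SE), of the 6 tested lbp genes by total counts (circles) and under TMM (squares), with the median of all tested genes as vertical lines. lbp-8 is drawn only at its bound of −3.32 with an arrow and has no square for TMM. Only lbp-1 lies to the right of the median of 1.23.

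Of the genes for members with a predicted secretion signal, lbp-1 had 114, 15, 26 and 204 counts in fasted libraries 1 to 4 (3.74, 0.593, 0.866 and 6.03 RPM), against 0, 0, 2 and 34 counts in fed libraries 1 to 4 (up to 1.29 RPM). Fasted libraries 1 and 4 were highest, and fed library 4 lay above fasted libraries 2 and 3, so that the groups overlapped. lbp-1 was not called (log2 fold change 2.99, SE 1.15, edgeR FDR 0.0343). With a replicate block it was called higher (3.79, edgeR FDR 0.00360), and with TMM added to the block it was not (2.76, FDR 0.0217). Without fed library 4 it was called higher (6.46, FDR 0.00150), and without fasted libraries 1 and 4 it changed by 1.06 (FDR 0.507).

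lbp-2 had 176, 2, 2 and 134 counts in fasted libraries 1 to 4, against 0, 0, 0 and 6 counts in fed libraries 1 to 4. High counts were thus limited to fasted libraries 1 and 4, and the gene failed the filter. In a fit of all 16629 genes with a count, 24.4% of which were called higher and 4.19% lower, it was called higher by 5.27 (SE 1.33, edgeR FDR 0.00424). This call was lost without fasted library 1 (4.44, FDR 0.0103), without fed library 1, 2 or 3 (FDR 0.0215 to 0.0224) and under TMM (4.24, FDR 0.0171), and without fasted libraries 1 and 4 together the value was 0.31 (FDR 1.00). lbp-3 had 16, 8, 0 and 19 counts in fasted and 3, 4, 0 and 1 counts in fed libraries 1 to 4, and in the same fit it was not called (edgeR FDR 0.206).

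Body wall muscle, pharynx and neuron markers were highest in fasted libraries 1 and 4 as well. Fasted libraries 1 and 4 held 890.5 and 1268 RPM of body wall muscle markers, against 56.7 and 21.6 RPM in fasted libraries 2 and 3, and lbp-2 had 5.78 and 3.96 RPM in libraries 1 and 4, against 0.0790 and 0.0666 RPM in 2 and 3. Coelomocyte markers had another order, at 6.04, 4.62, 6.89 and 7.86 RPM in fasted libraries 1 to 4, and germline and oocyte markers were highest in fasted library 2. Hypodermis markers summed to 26.6, 38.8, 4.90 and 32.0 RPM in fasted libraries 1 to 4. In fasted library 2 sqt-3 alone gave 34.6 RPM of this sum, against 0.333 to 0.755 RPM in the other fasted libraries. Of the fed libraries, number 4 had the most lbp-1 and lbp-2 and the highest muscle marker sum (12.8 RPM, the others 9.33 to 10.9 RPM). Pharynx, neuron and hypodermis markers were highest in other fed libraries. They summed to 0.379, 4.28 and 2.16 RPM in fed library 4, against 0.531, 5.79 and 3.39 RPM in the highest fed library of each. The part of other tissues in the lbp-1 and lbp-2 values was not tested.

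**Figure D4:**
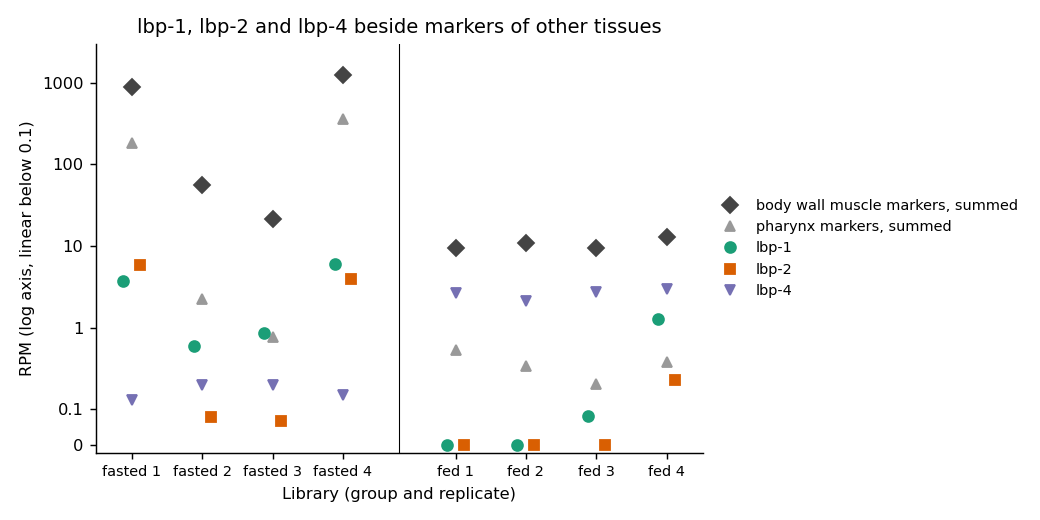
RPM of lbp-1, lbp-2 and lbp-4 and summed RPM of 8 body wall muscle and 6 pharynx markers (vertical axis, logarithmic above 0.1 and linear below) in each fasted and fed library (horizontal axis). lbp-1, lbp-2 and both marker sums are highest in fasted libraries 1 and 4, and lbp-4 is low in all 4 fasted libraries.

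lbp-9 failed the filter too. It had 13, 20, 2 and 18 counts in fasted libraries, against 0, 2, 4 and 2 counts in fed libraries, in the order of replicates, and fasted library 3 lay within the fed range. In the unfiltered fit it was not called (2.39, SE 1.09, edgeR FDR 0.0929). Its highest level was in fasted library 2, which also had the highest sum of germline and oocyte markers (360.2 RPM). The hypodermis sum was highest there too (38.8 RPM), but sqt-3 alone gave 34.6 RPM of it. Fasted libraries 1, 3 and 4 had 0.427, 0.0666 and 0.532 RPM of lbp-9, in another order than their germline and oocyte sums (132, 61.8 and 63.4 RPM). The part of other tissues in the lbp-9 values was not tested. An antisense partner, Y40B10A.9, averaged 0.136 ± 0.121 RPM in fasted intestines (SD, n = 4) and was at 0 in all fed libraries.

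Other carriers of fatty acids were compared with the LBPs. The acyl-CoA binding proteins hold fatty acids once they are activated with coenzyme A, and of 4 tested among 6 genes 2 were higher and 2 lower (edgeR, as above), against 52.9% higher and 9.97% lower among all tested genes. Under TMM 1 was higher and 2 were lower, against 19.6% and 21.5%. acbp-4 had 1.88 ± 0.850 RPM in fasted and 0.0776 ± 0.0939 RPM in fed intestines (SD, n = 4 each; log2 fold change 4.48, SE 0.753, edgeR FDR 3.23e-04). The fed libraries held 5, 0, 3 and 0 counts of it, and without fed library 1 the value was 5.36. acbp-5 had 3.46 ± 0.661 and 0.831 ± 0.170 RPM (2.06, edgeR FDR 6.73e-05), a call that TMM scaling removed (0.99, FDR 0.0129). maa-1, a membrane-bound member of endosomes, was lower (3.05 ± 0.521 RPM in fasted and 9.74 ± 1.65 RPM in fed intestines, −1.68, edgeR FDR 3.41e-05). acbp-1 was lower as well (−1.36, edgeR FDR 0.00511), but lost its call without fasted library 1, 2 or 3 or fed library 1 or 4 (FDR 0.0120 to 0.0198). The median over the 4 was 0.35, against 1.23 for all tested genes.

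The fatty acid and retinol binding proteins, a family of nematodes, were scarce. Of 9 listed genes 8 were in the table, 7 had a count and 1 was tested, of which 0 were called by edgeR or DESeq2 and 0 reached an unadjusted P under 0.05. The tested gene, far-2, changed by 1.91 (SE 0.965, edgeR FDR 0.0924). far-1 had 96, 6, 4 and 148 counts in fasted libraries 1 to 4, against 0, 4, 0 and 0 counts in fed libraries 1 to 4, and was thus high in the same 2 libraries as lbp-1 and lbp-2. In the unfiltered fit it was called higher (5.40, SE 1.23, edgeR FDR 0.00201).

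Of 4 genes that act with LBP-8 or LBP-3 in lysosomal lipid signalling, 3 were tested, of which 1 was higher and 1 lower by total counts, and 0 were higher and 2 lower under TMM or with DESeq2. Among all 7379 tested genes 52.9% were higher and 9.97% lower by total counts, and 19.6% and 21.5% under TMM. With DESeq2 1748 of them were higher and 1754 lower. lipl-4, which encodes the lysosomal lipase that starts this signal, was higher, with 722, 937, 1343 and 1657 counts in fasted libraries 1 to 4, against 301, 244, 343 and 365 counts in fed libraries 1 to 4 (log2 fold change 1.61, SE 0.221, edgeR FDR 8.04e-05). The groups did not overlap in RPM, and with TMM scaling the gene lost its call (0.54, FDR 0.0575). nhr-49, the receptor that switches fatty acid genes on or off, was lower, at 36.9, 37.1, 28.7 and 27.9 RPM in fasted libraries 1 to 4, against 109, 80.9, 117 and 90.6 RPM in fed libraries 1 to 4 (−1.61, SE 0.167, edgeR FDR 1.13e-05), and also under TMM (−2.68). nhr-80, its partner receptor, was not called (0.30, SE 0.131, edgeR FDR 0.0591) and was lower under TMM (−0.78, FDR 4.69e-04). nlp-11, a neuropeptide gene that acts downstream of LBP-3 in neurons, had no count in any library. The median over the 3 tested genes was 0.30, against 1.23 for all tested genes.

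Of 10 genes known as targets of NHR-49, 8 were tested, 2 were higher and 6 lower, with a median of −1.63. Among all tested genes the shares were 52.9% higher and 9.97% lower, and the median was 1.23. Under TMM the counts were again 2 and 6, against 19.6% and 21.5% of all tested genes. The fatty acid desaturase genes fat-5 (−4.73), fat-7 (−2.96) and fat-6 (−1.40) and the carnitine palmitoyltransferase gene cpt-5 were among the lower ones. cpt-5 had 1.75 ± 0.900 RPM in fasted and 12.6 ± 2.86 RPM in fed intestines (SD, n = 4 each; −2.86, SE 0.332, edgeR FDR 2.43e-05). The acyl-CoA dehydrogenase gene acdh-1 (−1.86) lost its call without fasted library 2 or fed library 2. fmo-2, a flavin monooxygenase gene (4.57), and icl-1, the gene of the glyoxylate cycle (1.78), were higher. fmo-2 had 4, 0, 2 and 0 counts in fed libraries 1 to 4, and its value was 5.58 without fed library 1. The acyl-CoA synthetase gene acs-2 failed the filter, with 133, 2, 74 and 28 counts in fasted libraries 1 to 4, against 6, 0, 4 and 6 counts in fed libraries 1 to 4, and was called higher in the unfiltered fit (3.58, SE 0.925, edgeR FDR 0.00503). Of the 7 genes for yolk and lipoprotein export, by which the intestine sends out lipid in particles rather than on single carriers, 1 was higher and 5 were lower, with a median of −1.24, and under TMM 0 were higher and 6 lower, beside the same shares of all tested genes. The higher one was the yolk protein gene vit-2 (0.72), whose value was −0.36 under TMM. Among the lower ones dsc-4, the gene for the microsomal triglyceride transfer protein, had 269.6 ± 29.4 RPM in fasted and 637 ± 71.0 RPM in fed intestines (SD, n = 4 each; −1.24, SE 0.125, edgeR FDR 8.83e-06).

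**Figure D5:**
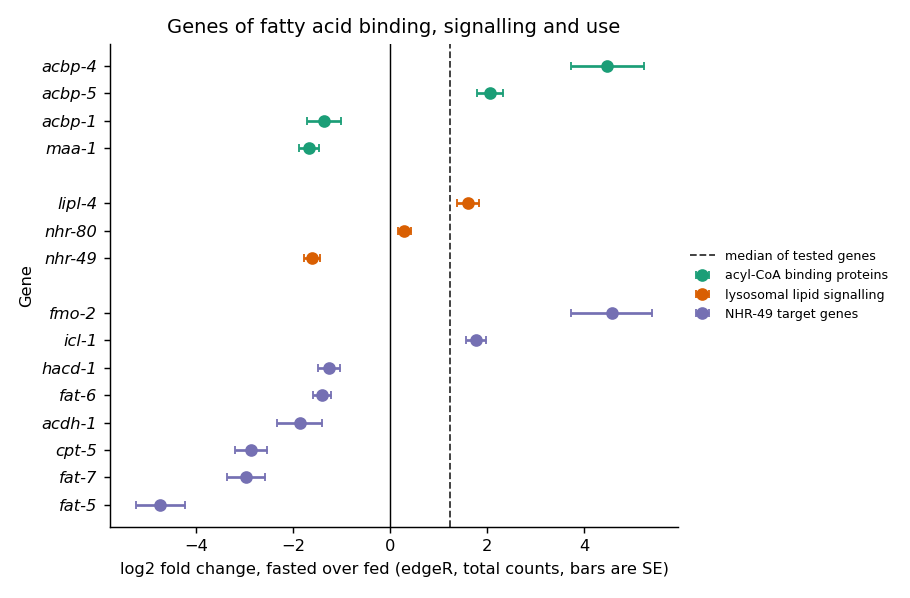
edgeR log2 fold change by total counts, fasted over fed (horizontal axis, bars are SE), of the tested acyl-CoA binding protein genes, lysosomal lipid signalling genes and NHR-49 target genes, with the median of all tested genes as a dashed line. acbp-4, acbp-5, lipl-4, fmo-2 and icl-1 lie to the right of the median of 1.23, and the others to its left.

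The genes most like each tested member were found by the Pearson correlation of log2(scaled count + 8) over the 8 libraries. The points share their libraries, and a difference between fasted and fed groups alone gives a high value, so that r is a description. For lbp-4 they were sucl-2, a subunit gene of succinyl-CoA ligase (r = 0.996), and dmsr-16 (r = 0.996). sucl-2 averaged 3.30 RPM in fasted and 138 RPM in fed intestines. For lbp-8 they were sysm-1 (r = 0.993) and the glutathione S-transferase gene gst-10 (r = 0.992), and for lbp-6 trap-3 (r = 0.995) and mai-1 (r = 0.989), an inhibitor of the mitochondrial ATPase. lbp-1 was most like D2030.11 (r = 0.987) and the proteasome gene pas-3 (r = 0.964). For lbp-5 the values were lower, with dod-24 (r = 0.931) and osgn-1 (r = 0.870), as they were for lbp-7, with the lysozyme gene lys-10 (r = 0.927) and the respiratory chain gene ucr-1 (r = 0.925).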

How the data were processed

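Per the labels and the study's methods, the 4 libraries of a group are independent biological replicates, dissected intestines were lysed, and RNA was amplified with a full-length cDNA chemistry that is not stated to keep the strand. The authors trimmed adaptors, aligned reads to ce10 with QuasR, kept unique reads and counted those in the orientation of WormBase exons. The deposited values are raw counts, with the exon width of each gene, and unmatched value columns numbered 0. No spike-in was used here, so that values are relative within a library. Columns were matched to samples by title, and groups came from the titles. Symbols and positions were taken by identifier from the WBcel235 annotation.

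Genes were tested with edgeR 4.0.16 (glmQLFit and glmQLFTest, R 4.3.3), with library size as the total of the deposited counts, filterByExpr (minimum count 10, minimum total 15) and Benjamini-Hochberg adjustment over 7379 genes. SE was the log2 fold change divided by the root of the F statistic. Alternatives were TMM, DESeq2 1.42.0, totals without vitellogenins, no filter, a mean count of at least 10, a replicate block and left-out libraries. The fits were tested on simulated data. Members and lists (fatty acid carriers, lysosomal lipid signalling, NHR-49 targets, yolk export and markers of 8 tissues) were chosen with earlier results of these data known. Genes named are the members, the list genes and, for each tested member, the 2 most correlated genes. A planned search for promoter motifs was not run, since no sequence was used here.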

Additional observations from a re-analysis of the deposited data

Results flagged for a closer look

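Of 19 groups of 4 libraries checked, 2 held a value far from the rest, both in fed library 4. The rule flags about 1 of 20 groups by chance for normally distributed values, a rate that does not apply to counts near 0. lbp-1 had 1.29 RPM there, against 0, 0 and 0.0805 RPM in fed libraries 1 to 3. lbp-2 had 0.228 RPM there and 0 in the other fed libraries, a case in which any count would have been flagged. In both cases the gap to the nearest library made up nearly all of the range of the group.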

How the results depend on the processing

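lbp-4, lbp-6 and lbp-8 kept their direction and their call under every alternative run. The unfiltered fits of lbp-2, lbp-3 and lbp-9 under TMM or with libraries left out were also chosen after seeing the data. Leaving out single libraries gave 0 to 1 lbp genes higher (1 without fed library 4, lbp-1) and 3 lower throughout, and 1 was higher with no filter (lbp-2). Over all genes, 1448 were higher and 1585 lower under TMM, 1748 and 1754 with DESeq2, and 951 and 1350 under TMM without fasted libraries 1 and 4, an alternative chosen after seeing the data, and the median log2 fold change lay between 0.091 and 1.89 over the alternatives. Same-numbered libraries are not paired by the labels, although the methods describe fed and fasted adults as parts of 1 collection. In their deviations they correlated at 0.0404 to 0.148, and libraries of unlike number at −0.160 to 0.132. Whether they share a culture was not settled. With a replicate block, 1 lbp gene was higher (lbp-1, 3.79, FDR 0.00360, and 2.76, FDR 0.0217, not called, once TMM was added) and lbp-5 turned to 0.062. With a replicate block and TMM, 1316 genes were higher and 1502 lower. The sign of lbp-5 also turned without fasted library 2 (0.11) or fed library 1 (0.75), and single libraries left out gave −0.53 to 0.75. The cause of these changes was not tested.

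Among acyl-CoA binding proteins 1 was higher under TMM, also with a replicate block, and 0 under TMM without fasted libraries 1 and 4 (acbp-4, 3.54, FDR 0.0137). 1 was lower without these libraries, and 1 to 2 when single libraries were left out. Of the lysosomal lipid signalling genes 0 were higher and 2 lower under TMM (with or without a replicate block, or without fasted libraries 1 and 4) and DESeq2, where nhr-80 turned to −0.78, −0.79 (replicate block with TMM), −0.70 (without those libraries) and −0.79 (DESeq2). Of the NHR-49 targets 1 was higher under TMM with a replicate block (fmo-2 lost, FDR 0.0119) or without fasted libraries 1 and 4 (icl-1 lost, 0.69, FDR 0.0479). Of the fatty acid and retinol binding proteins 1 was higher with no filter or at a mean count of at least 10. Of the yolk and lipoprotein export genes 0 were higher in all 4 of these TMM and DESeq2 fits and with totals that leave out vitellogenins. vit-2 turned to −0.36 (TMM), −0.37 (DESeq2), −0.36 (replicate block with TMM) and −0.34 (TMM without fasted libraries 1 and 4), and vit-5 to −0.70, −0.71, −0.70 and −0.69 in the same order. Shares of the family moved by less than 1 SD when levels were not divided by exon width. Depth limits lbp-3, lbp-8 and lbp-9, with at most 19, 38 and 20 counts in a library, and lbp-5 and lbp-7, with at most 44 and 38 counts. It also limits lbp-4, with 4 to 6 counts in fasted libraries.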

Other observations

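Genes that lie between members were scarce. ant-1.2, between lbp-6 and lbp-5, averaged 0.398 ± 0.287 RPM in fasted and 0.177 ± 0.138 RPM in fed intestines (SD, n = 4 each). Between lbp-7 and lbp-8, T22G5.3 averaged 0.484 ± 0.129 RPM in fasted and 0.200 ± 0.234 RPM in fed intestines and was not called (log2 fold change 1.21, SE 0.750, edgeR FDR 0.162). The other 2 genes there, srsx-19 and spp-12, averaged at most 0.0970 RPM in fasted and 0.0994 RPM in fed intestines.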
